A study of Mus musculus with 4 samples.

Results

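The genes described here are 40 genes that find and repair damaged DNA. They comprise 14 damage kinases and mediators, 15 genes of homologous recombination and 11 genes of the Fanconi anaemia pathway. They were listed by name, with no measured value in the rule, but earlier results of these data were known at the time. All 40 were found among the 55357 gene identifiers of the deposited count table, 39 under the listed symbol and claspin under its reference symbol Clspn. All 40 passed the filter on low counts and were among the 17422 genes tested.

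The kinases ATM, ATR and DNA-PK sense broken ends or stalled replication forks and phosphorylate mediators and checkpoint kinases that hold the cell cycle. Homologous recombination trims a broken end to single-stranded DNA, so that an intact sister sequence can serve as the template for repair. The Fanconi anaemia pathway recognises crosslinks between the DNA strands at a stalled fork, ubiquitinates the FANCD2 and FANCI pair and brings in nucleases. In the testis these genes protect dividing spermatogonia, and several of them act again at the programmed breaks of meiosis; inherited loss of many of them in mice reduces fertility.

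The libraries come from testis cells of C57BL/6 mice aged 7 days and form 2 groups, namely RNA precipitated with an antibody against DDX20 (DDX20 RIP, 2 libraries) and total RNA set aside as 10% input (Input, 2 libraries). DDX20 (Gemin3), a DEAD-box RNA helicase, belongs to the SMN complex, the machinery that assembles spliceosomal small nuclear RNPs. All cells were irradiated with ultraviolet light (200 mJ per square cm at 254 nm), which links RNA to bound protein, and no genotype or drug treatment is given for either group. The labels do not say how many mice were used or whether replicates came from separate cell preparations, so p-values measure a spread between libraries that may be technical. The catalogue numbers given for the antibody differ by 1 character between the RIP replicates. A control precipitation with another antibody was not analysed here, so "higher" describes the share of reads in the precipitate relative to the input and is not a measure of binding.

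Totals were 38458014 and 37927689 counts in the RIP libraries and 21913977 and 21416567 in the input libraries, and counts of the 40 genes ran from 68 to 23761 per library. Levels are given as CPM, a gene's count relative to the size of its library, with library sizes scaled by the trimmed mean of M values (TMM). The tissue label was checked against 40 marker genes, none of which was at 0 in any library. The summed level of 10 germ cell markers was 325 CPM in each RIP library, against 701 and 687 CPM in input. Of these 10 markers 6 were lower in RIP, 3 were higher (Tdrd1, Zbtb16 and Gfra1) and 1, Kit, was not called. That of 8 Sertoli cell markers was 2151 and 2146 CPM in RIP, against 3417 and 3385 CPM in input. Of these 8 markers 5 were lower in RIP, 2 were higher (Wt1 and Gata4) and 1, Sox9, was not called. Most of the Sertoli sum was Clu, at 1304 and 1294 CPM in RIP, against 2081 and 2058 CPM in input. Markers of Leydig cells (6 of 6), macrophages (5 of 5) and endothelial cells (3 of 5, with 1 higher) were mostly lower in RIP. Of 6 peritubular and stromal markers 3 were lower (Acta2, Dcn and Tcf21) and 2 higher, with a median log2 fold change of -0.30. Their sum, 5551 and 5368 CPM in RIP, against 2456 and 2461 CPM in input, was mostly Col1a1, at 4970.0 and 4778 CPM in RIP, against 1609 and 1631 CPM in input. The part of cell composition in the values below was not tested. In a bulk sample of mixed cells, fewer cells of a type and less RNA per cell cannot be told apart. A lower marker in RIP is a smaller share of reads in the precipitate than in input and does not measure the number of cells.

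Most messages of the damage response made up a larger share of the precipitate than of the input. Of the 40 genes 32 were higher in RIP, 2 were lower and 6 did not pass the test (edgeR's quasi-likelihood test, Benjamini-Hochberg adjusted p under 0.05 over all genes tested); with total counts in place of TMM scaling the counts were 28 higher and 8 lower. Of all genes tested 38.7% were called higher and 38.6% lower with TMM scaling, and 28.7% and 50.8% with total counts. The median log2 fold change of RIP over input was 1.22 for the 40 genes, a 2.33-fold difference, against -0.05 for all genes tested. Total counts moved the median of all genes by -0.35, and the folds below rest on TMM scaling unless another scaling is named.

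The size of the difference was often large. At least 2-fold increases were called for 22 of the 40 genes, against 17.1% of all genes tested. In a test against a change of 1.5-fold, 24 of the 40 were called higher and 1 lower, against 24.2% and 25.4% of all genes. RIP and input libraries did not overlap in 37 of the genes, 33 with RIP above and 4 with RIP below, against 42.7% and 45.3% of all genes. Replicates lay close together, with a median coefficient of variation of 2.97% in RIP and 5.23% in input over the 40 genes. Only 3 genes, Atrip, Rad51d and Fance, had overlapping libraries.

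**Figure D1:**
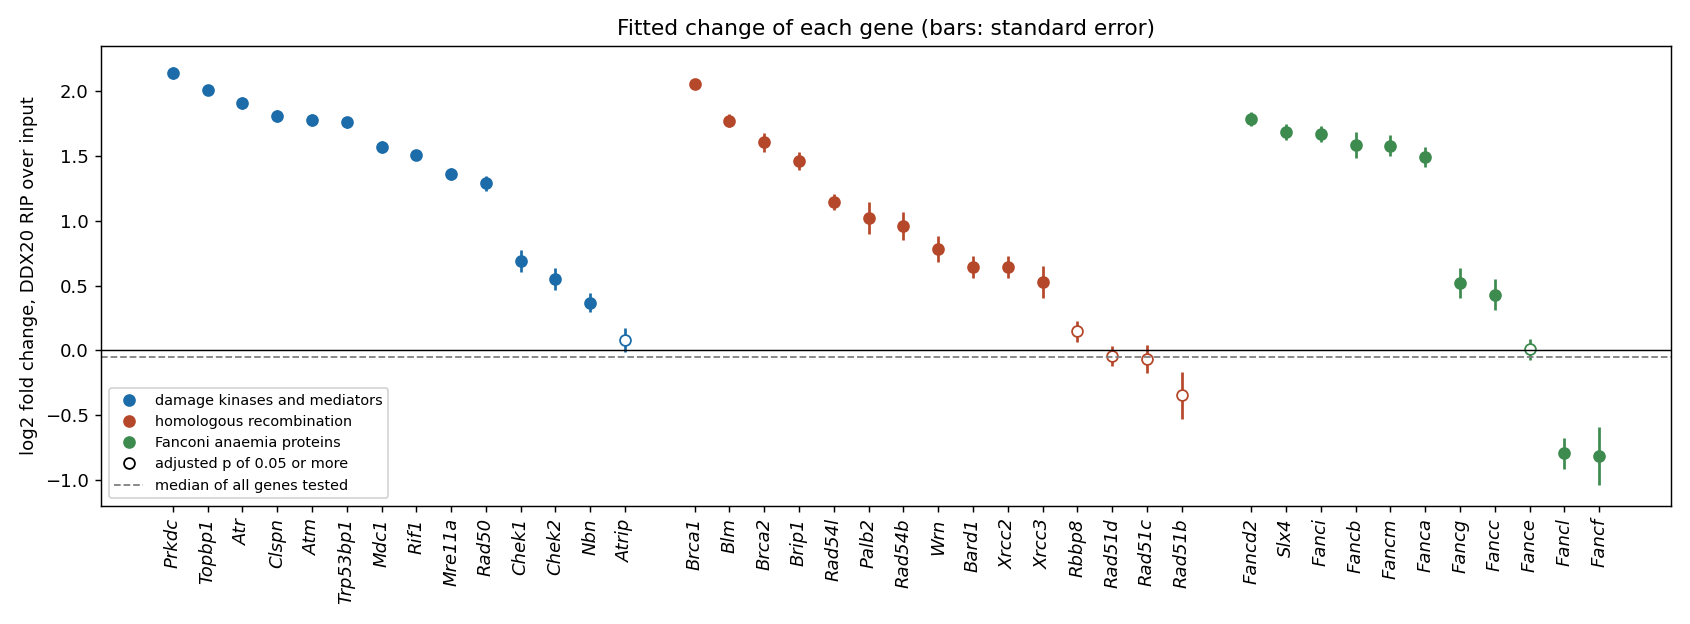
Fitted log2 fold change of DDX20 RIP over input for each of the 40 genes (vertical axis) in 3 groups, ordered within a group by the change. Bars are standard errors, open points did not pass the test, and the dashed line is the median of all genes tested (-0.05); values run from 2.14 for Prkdc down to -0.82 for Fancf.

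Among the damage kinases and mediators 13 of 14 genes were higher in RIP and none was lower, with a median log2 fold change of 1.54; with total counts 12 were higher and 1, Atrip, was lower. The largest change in this group was that of a kinase gene. Prkdc, which encodes the catalytic subunit of DNA-PK, the kinase of end joining, stood at 144 and 138 CPM in RIP, against 32.3 and 31.6 CPM in input. Atr, the kinase that answers to single-stranded DNA at stalled forks, stood at 153 and 157 CPM in RIP, against 42.5 and 39.8 CPM in input. Both RIP libraries were far above both input libraries for each kinase. The log2 fold changes were 2.14 ± 0.0489 for Prkdc and 1.91 ± 0.0461 for Atr (SE, n = 2 libraries per group; adjusted p = 6.05e-29 and 3.00e-28). Atm, the kinase activated by broken ends, rose by 1.78 ± 0.0442.

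The mediators that pass the signal on were also higher. Topbp1, which switches on ATR, was the most abundant of the 40 messages, at 702 and 682 CPM in RIP, against 176 and 168 CPM in input, a log2 fold change of 2.01 ± 0.0295. Clspn encodes claspin, the adaptor between ATR and CHK1, and stood at 141 and 140.4 CPM in RIP, against 39.0 and 41.1 CPM in input, a log2 fold change of 1.81 ± 0.0464. The libraries of each group nearly coincided for claspin. Trp53bp1, whose protein steers breaks towards end joining, rose by 1.76, Mdc1, which reads phosphorylated histone H2AX, by 1.57, and Rif1, an effector of 53BP1 and organiser of replication timing, by 1.51. Exons of Trp53bp1 share 15.0% of their bases with Tubgcp4 on the opposite strand, and the library kit named in the labels is not a directional one, so reads on the shared bases cannot be assigned to either gene.

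The checkpoint kinases that these mediators activate moved less. Chek1 stood at 25.1 and 25.7 CPM in RIP, against 15.2 and 16.3 CPM in input, a log2 fold change of 0.69 ± 0.0869. Chek2 stood at 27.8 and 25.6 CPM in RIP, against 18.7 and 17.8 CPM in input, a log2 fold change of 0.55 ± 0.0841. RIP was above input in each library pair, but neither gene passed the test against a 1.5-fold change (adjusted p = 0.0769 for Chek1 and 0.573 for Chek2, edgeR's glmTreat). Atrip, which carries ATR to single-stranded DNA, did not pass the test at all: it stood at 23.1 and 21.2 CPM in RIP, against 23.3 and 18.6 CPM in input, a log2 fold change of 0.08 ± 0.0935 (adjusted p = 0.456). With total counts it was called lower (-0.27). Its exons share 16.0% of their bases with Trex1.

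The members of the MRN complex, which tethers and trims broken ends, differed among themselves. Mre11a, the nuclease, stood at 123 and 127 CPM in RIP, against 49.7 and 47.5 CPM in input, a log2 fold change of 1.36 ± 0.0464. Rad50, the ATPase that bridges the ends, stood at 100.1 and 94.6 CPM in RIP, against 43.1 and 36.5 CPM in input, a log2 fold change of 1.29 ± 0.0593. Nbn, the subunit that recruits ATM, stood at 35.1 and 34 CPM in RIP, against 28.0 and 25.5 CPM in input. Its libraries did not overlap, but the log2 fold change was 0.37 ± 0.0740, and with total counts it was 0.02 and not called (adjusted p = 0.831).

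Homologous recombination genes spread more widely: 11 of 15 were higher, none was lower and 4 did not pass the test; the median log2 fold change was 0.78. With total counts 10 were higher and 4 lower. Brca1, the tumour suppressor that with BARD1 forms a ubiquitin ligase and promotes end resection, led the group at 258 and 254 CPM in RIP, against 62.3 and 60.9 CPM in input. Its log2 fold change was 2.06 ± 0.0382 (adjusted p = 1.73e-31), larger than that of 98.8% of all genes tested. Bard1 itself stood at 29.8 and 28.5 CPM in RIP, against 19.9 and 17.3 CPM in input, a log2 fold change of 0.65 ± 0.0838. Both partners were higher in RIP, Brca1 by 4.16-fold and Bard1 by 1.56-fold.

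The helicases and Brca2 rose as well. Blm, a RecQ helicase that dissolves joined molecules, stood at 113 and 116 CPM in RIP, against 34.6 and 32.4 CPM in input, a log2 fold change of 1.77 ± 0.0517. Brca2, the tumour suppressor that acts on the resected single strand, stood at 55.5 and 58.1 CPM in RIP, against 20.02 and 17.2 CPM in input, a log2 fold change of 1.61 ± 0.0739. Brip1, the helicase partner of BRCA1, stood at 62.9 and 63.4 CPM in RIP, against 23.8 and 21.98 CPM in input, a log2 fold change of 1.46 ± 0.0663. RIP libraries were above input libraries without exception in these 3 genes. Wrn, the other RecQ helicase, moved less, at 19.8 and 21.4 CPM in RIP, against 11.9 and 12.1 CPM in input, a log2 fold change of 0.78 ± 0.0983. Palb2, the bridge between BRCA1 and BRCA2, rose by 1.02 ± 0.124, and the genes of the DNA translocases RAD54L and RAD54B by 1.15 ± 0.0620 and 0.96 ± 0.111. Rad54b shares 35.9% of its exonic bases with other genes, chiefly Fsbp on the same strand, so its value is uncertain. Rad54l shares 15.4% with Lrrc41 on the opposite strand.

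Xrcc2, Xrcc3, Rad51b, Rad51c and Rad51d, whose small proteins act together in strand exchange, had log2 fold changes between -0.35 and 0.65. Xrcc2 stood at 30.7 and 29.3 CPM in RIP, against 20.9 and 17.5 CPM in input, a log2 fold change of 0.65 ± 0.0849. Xrcc3 stood at 14.1 and 11.9 CPM in RIP, against 8.39 and 9.65 CPM in input, a log2 fold change of 0.53 ± 0.124. These were the 2 of the 5 called higher, though Xrcc3 lost its call with total counts (0.18), with upper-quartile scaling (0.19) and without input replicate 1 (0.45, adjusted p = 0.0631). Rad51b was among the rarest genes, at 4.11 and 3.64 CPM in RIP, against 5.15 and 4.72 CPM in input, with a log2 fold change of -0.35 ± 0.182 (adjusted p = 0.0795). Rad51c stood at 13.3 and 12.9 CPM in RIP, against 13.3 and 14.1 CPM in input. Rad51d stood at 29.5 and 26.7 CPM in RIP, against 30.4 and 27.4 CPM in input. The log2 fold changes of Rad51c and Rad51d were -0.07 ± 0.107 and -0.04 ± 0.0783 (adjusted p = 0.565 and 0.634), so a difference beyond the spread between libraries was not detected. With total counts Rad51b, Rad51c and Rad51d were called lower (-0.70, -0.42 and -0.39).

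Rbbp8, which encodes the resection factor CtIP, also stayed near the input, at 26.5 and 27.6 CPM in RIP, against 26.5 and 22.4 CPM in input. Its log2 fold change of 0.15 ± 0.0823 did not pass the test (adjusted p = 0.107), was called higher without input replicate 1 (0.29, adjusted p = 0.0297) and was called lower with total counts (-0.20).

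**Figure D2:**
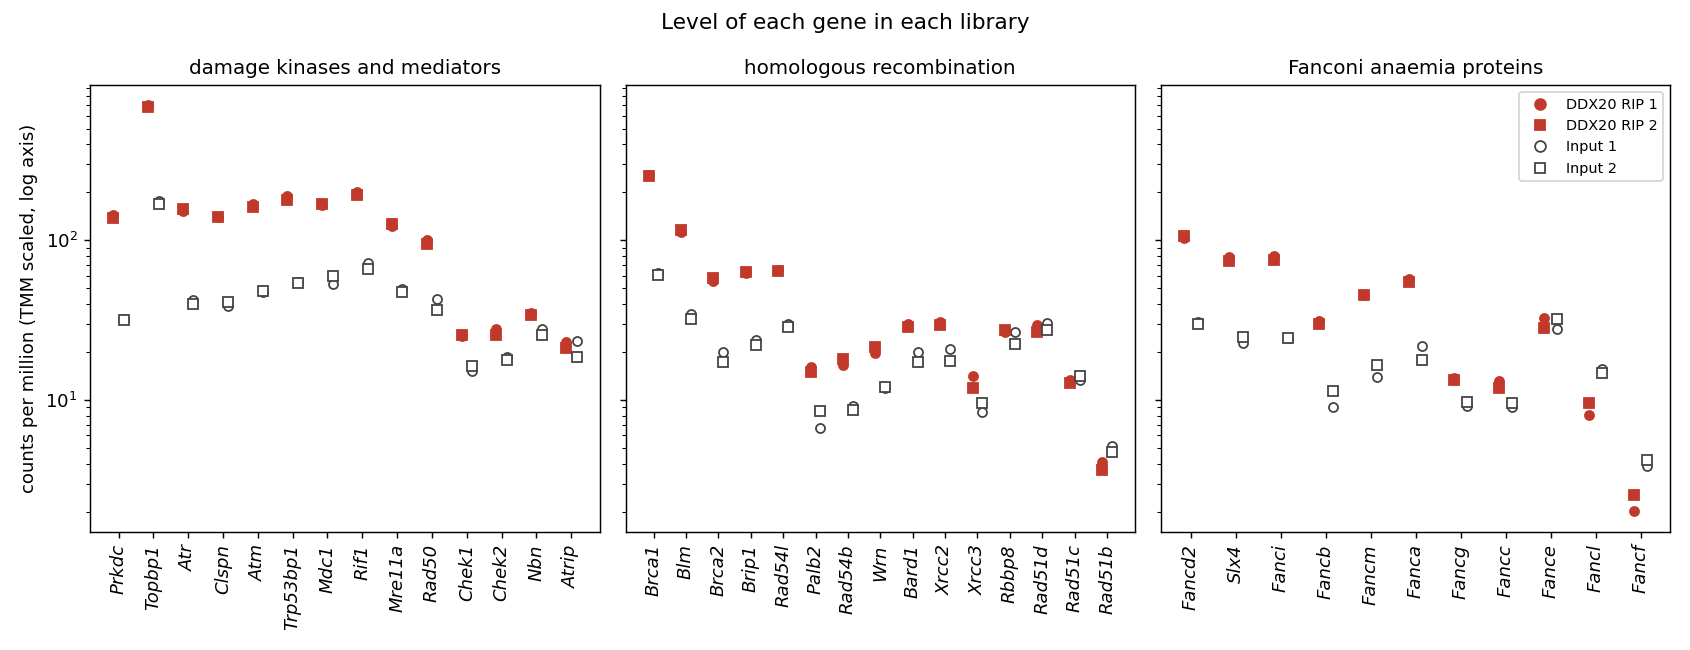
Level of each gene in each library, in CPM on a log axis, with filled red symbols for DDX20 RIP and open symbols for Input (circles replicate 1, squares replicate 2). Replicates nearly coincide. The 2 groups are far apart for genes such as Prkdc, Topbp1 and Brca1 and meet for Atrip, Rad51d and Fance. They are inverted for Fancl, Fancf, Rad51b and, narrowly, Rad51c.

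The Fanconi anaemia genes split into sets that also differed in coding length. Of 11 genes 8 were higher, 2 were lower and 1 did not pass the test, and the median log2 fold change was 1.49. With total counts 6 were higher and 3 lower. No member lay between 0.52 (Fancg) and 1.49 (Fanca). Genes above this gap have coding sequences of 2559 nt (Fancb) to 6063 nt (Fancm), and those below it of 1029 nt (Fancf) to 1869 nt (Fancg). With the offset for coding length given below, the gap closed, with Fancm at 0.31 and Fancc at 0.23. The messages for the pair of proteins that the pathway ubiquitinates rose together. Fancd2 stood at 104 and 106 CPM in RIP, against 30.8 and 30.0 CPM in input, a log2 fold change of 1.78 ± 0.0533 (adjusted p = 1.61e-25). Fanci stood at 79.5 and 75.3 CPM in RIP, against 24.4 and 24.3 CPM in input, a log2 fold change of 1.67 ± 0.0619. Fanci shares 16.0% of its exonic bases with Polg on the opposite strand. Slx4, the scaffold on which crosslink-cutting nucleases assemble, stood at 78.7 and 74.2 CPM in RIP, against 22.6 and 24.9 CPM in input, a log2 fold change of 1.69 ± 0.0643.

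Within the core complex, which acts as the ubiquitin ligase, the subunits went different ways. Fancb stood at 31.2 and 30.1 CPM in RIP, against 8.997 and 11.4 CPM in input, a log2 fold change of 1.59 ± 0.0974. Fancm, a translocase that anchors the complex at the fork, rose by 1.58 ± 0.0807, and Fanca by 1.49 ± 0.0765. Fancg stood at 13.7 and 13.4 CPM in RIP, against 9.16 and 9.77 CPM in input, a log2 fold change of 0.52 ± 0.116. Fancc stood at 13.2 and 12.0 CPM in RIP, against 9.04 and 9.65 CPM in input, a log2 fold change of 0.43 ± 0.119. Libraries of the groups did not overlap for these subunits, but Fancg and Fancc were not called with total counts (0.17 and 0.08). Exons overlap opposite-strand genes over 18.6% of bases in Fancc and 10.5% in Fanca.

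Fance, a core subunit that contacts FANCD2, stood at 32.6 and 28.1 CPM in RIP, against 28.0 and 32.3 CPM in input, with a log2 fold change of 0.01 ± 0.0813 (adjusted p = 0.922). The ranges of its groups overlapped, and with total counts it was called lower (-0.34). The remaining subunits fell. Fancl, the catalytic subunit of the ligase, stood at 8.04 and 9.52 CPM in RIP, against 15.7 and 14.8 CPM in input, a log2 fold change of -0.80 ± 0.118 (adjusted p = 2.58e-07). Fancf, an adaptor subunit encoded by a single exon, stood at 2.01 and 2.54 CPM in RIP, against 3.85 and 4.18 CPM in input, a log2 fold change of -0.82 ± 0.221 (adjusted p = 0.00129). Fancf is the rarest of the 40 genes in input (4.02 ± 0.234 CPM, SD, n = 2) and did not pass the test against a 1.5-fold change (adjusted p = 0.0970). Exons overlap opposite-strand genes over 13.7% of bases in Fancl and 15.0% in Fancf.

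Levels of different genes were compared per kilobase of annotated exon. Topbp1 was first of the 40 in both groups, at 61.7 CPM per kb in RIP and 15.3 CPM per kb in input. In input it was followed by Nbn (10.6), Fance (9.45), Mre11a (8.20) and Rad51d (7.78 CPM per kb). In RIP it was followed by Brca1 (30.0), Mdc1 (22.6), Mre11a (21.1) and Clspn (19.6 CPM per kb), while Nbn was ninth of 40 and Rad51d 21st. The lowest input levels per kb were those of Palb2 (1.04), Fancc (1.12), Rad51b (1.31) and Brca2 (1.37 CPM per kb), whose order rests on small differences. These levels depend on the annotated exon lengths, which may not be those used for counting.

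The fold changes followed coding length closely. Coding sequences of the 40 genes run from 834 nt in Xrcc2 to 12384 nt in Prkdc, with a median of 2995.5 nt, against 1374 nt for the 14680 tested genes with an annotated coding sequence. Across the 40 genes, log2 fold change and coding length had a Spearman's rho of 0.845 and a Pearson's r of 0.835 with log2 length, against 0.637 and 0.607 across all 14680 genes. These correlations are across genes, which share the same 4 libraries and are not independent replicates. The 13 longest, from 4317 nt (Fanca) upward, were all higher in RIP with a median log2 fold change of 1.76. Of the 13 of middle length 11 were higher (median 1.02), and of the 14 shortest, up to 2241 nt (Rad54l), 8 were higher and 2 lower (median 0.47). Among all tested genes in the same 3 ranges of coding length, 83.1%, 75.5% and 44.1% were called higher, with medians of 1.5, 0.97 and 0.13 in the order longest to shortest.

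Other features of the messages tracked the fold change less. Spearman's rho with log2 fold change over the 40 genes was -0.08 for the length after the stop codon and -0.24 for the length before the start codon. It was -0.34 for the GC content of the coding sequence, and 0.03 over all genes with a coding sequence. The 40 coding sequences had a median GC content of 47.6%, against 53.4% for all genes. The rank correlation of fold change with input level was positive (rho 0.62, against 0.27 over all genes tested). The input values enter both quantities, as the divisor in the fold change, and the input level was not divided by gene length.

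**Figure D3:**
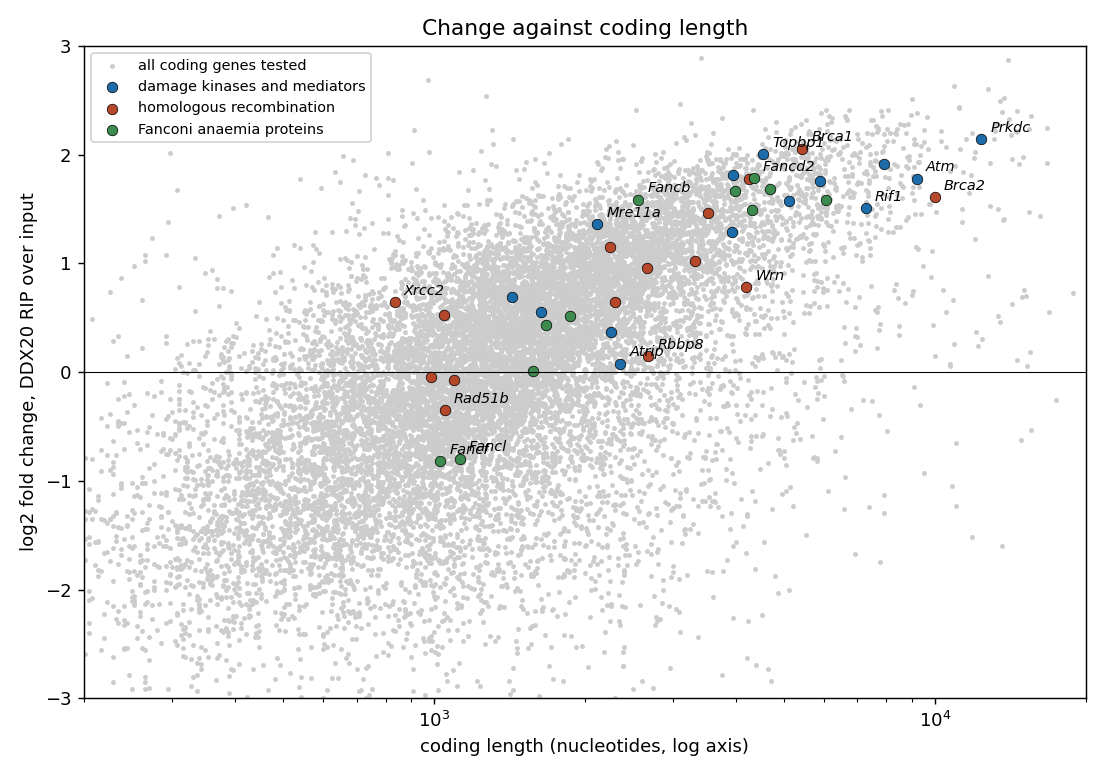
Log2 fold change of DDX20 RIP over input (vertical axis) against coding length in nucleotides (log axis), with the 40 genes coloured by group over all coding genes tested in grey; 175 of 14680 grey genes lie outside the axes. The coloured points tend to climb with length, from the shortest, Xrcc2 at 834 nt, to the longest, Prkdc at 12384 nt. Fancf and Fancl, at 1029 and 1125 nt, have the lowest changes. Xrcc2 lies above and Rbbp8, Atrip and Wrn lie below other members of similar length.

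With a smooth offset for coding length fitted over all genes, 26 of the 40 genes were higher, 5 lower and 9 not called, against 44.7% higher and 29.1% lower of all genes in that fit. The median log2 fold change was then 0.34, against 0.13 for all genes. Damage kinases and mediators kept the highest share, with 12 of 14 higher and 1 lower, against 8 and 2 of 15 for homologous recombination and 6 and 2 of 11 for the Fanconi anaemia genes. The difference between these groups was not tested.

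The members then stood in another order. Xrcc2, with the shortest coding sequence, stood highest at 1.17 ± 0.0833, followed by Fancb (0.96 ± 0.0968), Mre11a (0.93 ± 0.0466), Topbp1 (0.93 ± 0.0289) and Brca1 (0.86 ± 0.0395), all of them called higher with and without the offset. Brca2, at 0.06 ± 0.0749, Palb2 (0.17), Bard1 (0.13), Fancc (0.23) and Fancg (0.20) were no longer called. Rad51d was called higher (0.32, adjusted p = 0.000263). Rbbp8 (-0.53), Atrip (-0.47) and Wrn (-0.24) were called lower for their length, as were Fancl (-0.60) and Fancf (-0.50). Fancf stood at -0.03 and was not called with an offset for total exonic length, while Fancl kept its call there. Partners differed to varying extents. Brca1 stood at 0.86 beside Bard1 at 0.13 (2.06 and 0.65 without the offset), and Atr at 0.48 beside Atrip at -0.47 (1.91 and 0.08 without it). Rad50 stood at 0.31 beside Nbn at -0.13 (1.29 and 0.37 without the offset). Brca2 and Palb2, 1.61 and 1.02 without the offset, stood at 0.06 and 0.17 with it, in the opposite order and neither called. Fancd2 and Fanci stood at 0.73 and 0.68 (1.78 and 1.67 without the offset). These differences between partners were not tested.

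**Figure D4:**
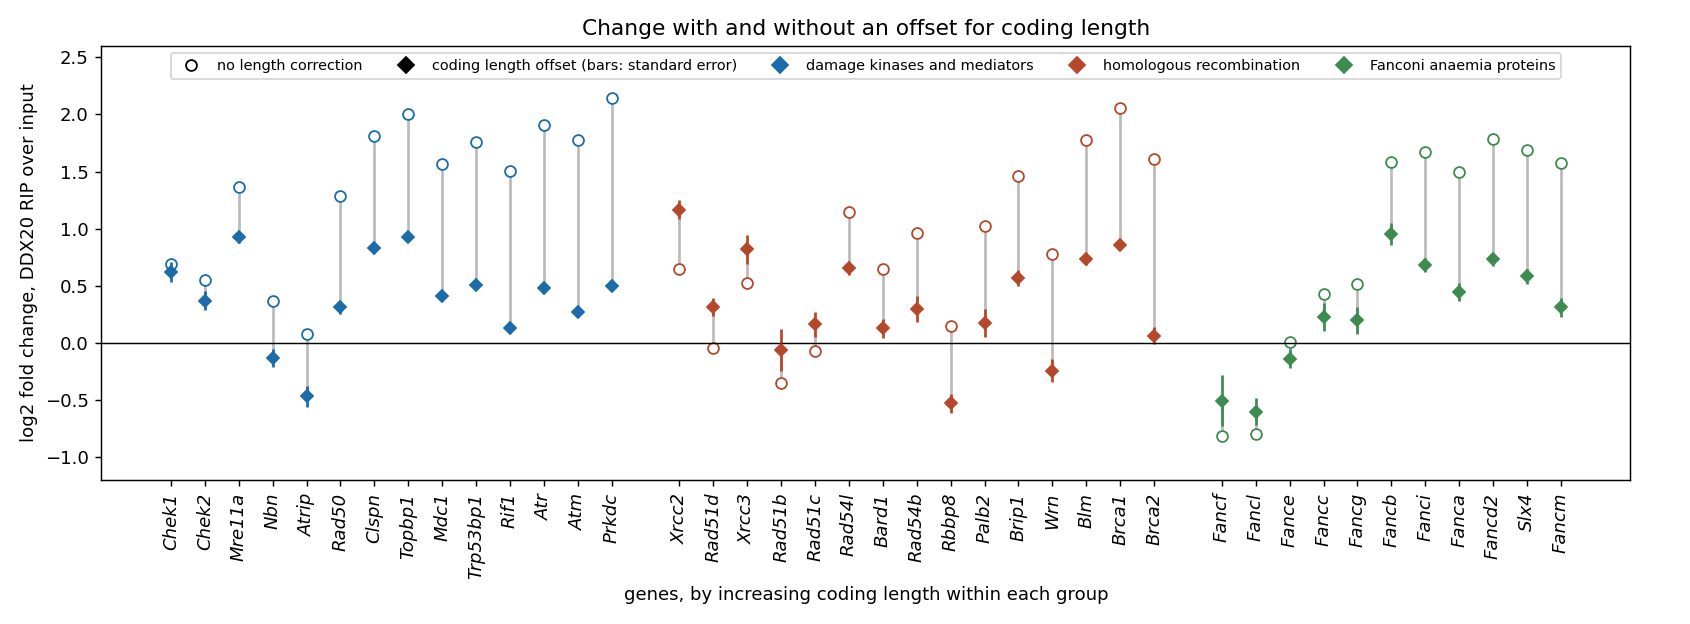
Log2 fold change of DDX20 RIP over input for each gene without a length correction (open circles) and with an offset for coding length (filled diamonds, bars are standard errors), ordered by coding length within each group. The correction moves long genes such as Prkdc (2.14 to 0.50) and Brca2 (1.61 to 0.06) the most and raises short ones such as Xrcc2 (0.65 to 1.17).

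Related genes of the same pathways moved in both directions, as did all genes tested. Of 79 genes listed beyond the 40, 78 were in the table and 77 were tested. Of the 77, 47 were higher and 23 lower in RIP, with a median log2 fold change of 0.42. With total counts 36 were higher and 29 lower. The shares of all genes tested were 38.7% higher and 38.6% lower, and 28.7% and 50.8% with total counts. Among 25 genes of resection, strand exchange and resolution 15 were higher and 8 lower. Rpa1, the large subunit of the single-strand binding protein RPA, rose by 0.59. Swi5 (-1.63) and Sfr1 (-1.14), whose small proteins form a complex that acts in strand exchange, fell. Among 15 Fanconi accessory and unhooking factors 7 were higher and 6 lower. Their median log2 fold change was -0.04, against -0.05 for all genes tested. Uhrf1, a hemimethylated-DNA reader that also senses crosslinks, rose by 1.68 and the ubiquitin ligase gene Rfwd3 by 0.35, the second of them not called with total counts and called lower with the coding length offset (-0.18, adjusted p = 9.92e-05). Cenpx (-2.19) and Cenps (-0.80), whose histone-fold proteins partner FANCM, fell, but Cenps was called higher with the coding length offset (0.29, adjusted p = 5.31e-05).

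Signalling and end joining genes also moved in both directions. Among 25 tested genes of clamp, fork and chromatin signalling 17 were higher and 5 lower. Trrap and Smg1, which encode large relatives of ATM and ATR, rose by 2.14 and 1.90, and Babam1, a subunit of the BRCA1-A complex, and Tipin, the partner of Timeless at the fork, fell by 0.42 and 0.76, with Babam1 not called under the coding length offset (-0.07). Among 12 end joining genes 8 were higher and 4 lower. The Ku subunit genes Xrcc6 and Xrcc5 rose by 0.39 and 0.65 (Xrcc6 was not called with total counts). Paxx (-1.06) and Nhej1 (-0.59), which encode small scaffold proteins, fell, but Nhej1 was called higher with the coding length offset (0.38, adjusted p = 0.000300). That call rests on an annotated coding length of 495 nt, in a transcript model with 0 nt before the start codon. With the coding length offset 48 of the 77 were higher and 15 lower, against 44.7% and 29.1% of all genes in that fit. The median log2 fold change of the 77 was then 0.32, close to the 0.34 of the 40 genes, against 0.13 for all genes.

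**Figure D5:**
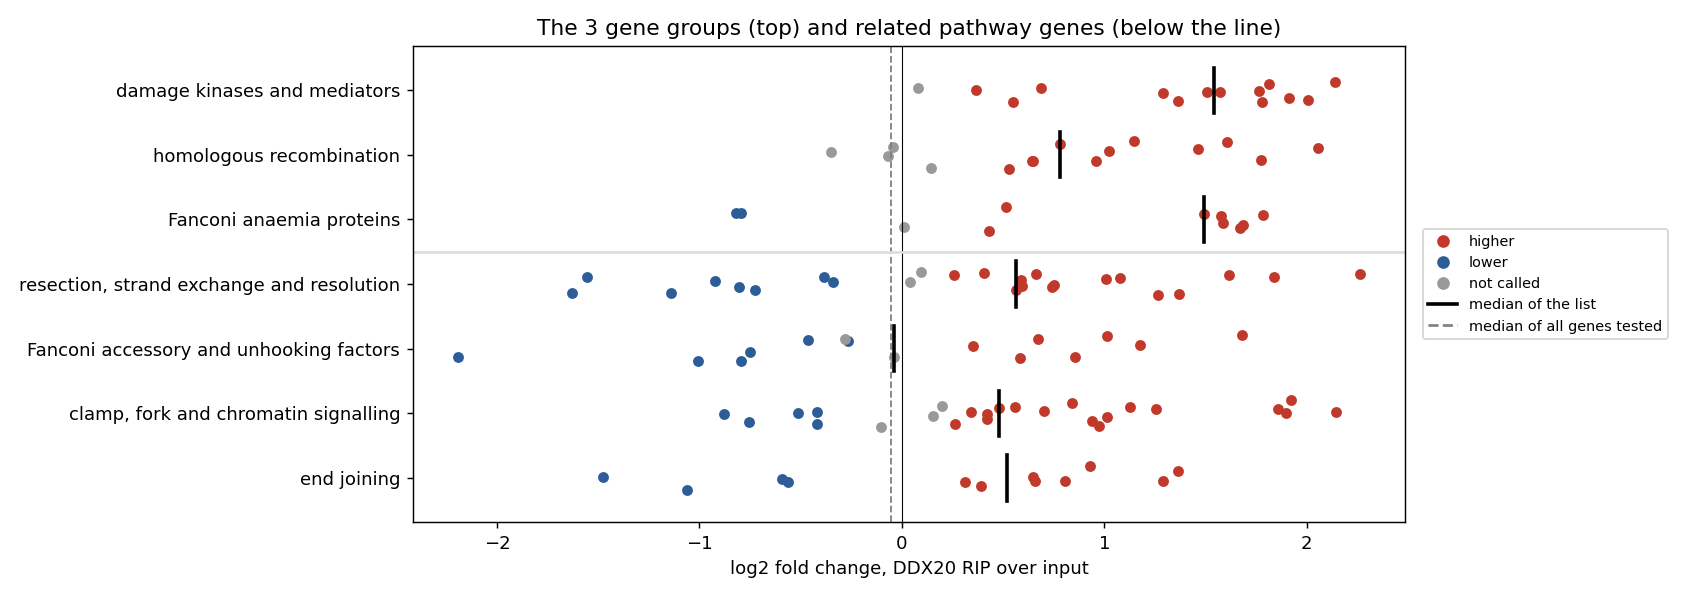
Log2 fold change of DDX20 RIP over input for each tested gene of the 3 groups (top) and of 4 lists of related pathway genes (below the grey line), coloured by the test's call; black bars are list medians and the dashed line is the median of all genes (-0.05). The medians of the upper 3 groups are 1.54, 0.78 and 1.49, and those of the related lists run from -0.04 to 0.56. These values have no length correction. With the coding length offset (not drawn) the group medians are 0.45, 0.29 and 0.31, and the related lists run from 0.19 to 0.53.

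The promoters of the genes were looked at as a feature that the choice of genes had not used; the comparison of RIP with input is of RNA and does not measure promoter activity. RefSeq promoter sequences (GRCm38.p6) matched 30 of the 40 genes, and the 250 bases before the start site were searched on both strands. An E2F-type motif, TTTNNCGC, the kind bound by the factors that switch on genes of S phase, was found in 7 of the 30 promoters (23.3%), against 6.89% of 11407 promoters of tested genes. These 7 were among the 24 promoters of genes higher in RIP, and none was among the 6 of genes lower or not called. The second set has only 6 promoters, so the absence of the motif there cannot tell whether motif and fold change are linked. The CCAAT box was found in 63.3% of the 30 promoters, against 36.3% of all. It was present in 15 of the 24 promoters of genes higher in RIP and in 4 of the other 6. TTTGAA, the motif of the cell cycle genes homology region, was found in 1 of 30, against 10.6% of all. The matched stretches are shown because the motif was more frequent in these promoters than in all; capitals mark the 8 bases of the match, which read as the reverse complement in Topbp1, Chek2 and Brca2.
Topbp1: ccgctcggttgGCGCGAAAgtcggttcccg
Mdc1: tcttcagcctgTTTCCCGCcggtagcc
Chek2: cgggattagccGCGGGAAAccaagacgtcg
Brca2: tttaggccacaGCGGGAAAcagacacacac
Brip1: ttgtcccagtcTTTTTCGCggggtggggtt
Bard1: ccgccgctcagTTTCCCGCtcaggaagttt
Fancg: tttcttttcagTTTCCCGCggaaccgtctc

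Those stretches lie at chr9:103305187-103305216 (plus strand) for Topbp1, chr17:35841471-35841497 (plus) for Mdc1, chr5:110839820-110839849 (plus) for Chek2 and chr5:150522442-150522471 (plus) for Brca2. They lie at chr11:86201364-86201393 (minus) for Brip1, chr1:71103163-71103192 (minus) for Bard1 and chr4:43010335-43010364 (minus) for Fancg. The match begins 16 bases before the start site in Mdc1 and 209 bases before it in Bard1, with the others between. The same 8 bases, TTTCCCGC, occur in Mdc1, Bard1 and Fancg, and on the opposite strand in Chek2 and Brca2.

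Positions are given for some of the genes described above and are those of the GENCODE M21 annotation of GRCm38 for the same identifiers. The RefSeq start sites used for the promoters can differ from these gene ends. The Fancg stretch, for example, lies inside the annotated gene (chromosome 4 from 43002343 to 43010506). Prkdc (ENSMUSG00000022672.9) lies on chromosome 16 from 15637866 to 15842235, Topbp1 (ENSMUSG00000032555.11) on chromosome 9 from 103305215 to 103350428 and Brca1 (ENSMUSG00000017146.13) on chromosome 11 from 101488764 to 101551955. Fancd2 (ENSMUSG00000034023.17) lies on chromosome 6 from 113531682 to 113597017, Fancl (ENSMUSG00000004018.10) on chromosome 11 from 26386135 to 26471876 and Fancf (ENSMUSG00000092118.2) on chromosome 7 from 51860577 to 51862267. Of the 40 genes 22 share no exonic base with another annotated gene and 9 share more than 10%. No other annotated transcript matched more than 3.41% of a member's transcript at 95% identity over 150 bases or more, and 3 of the 40 had any such match.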

How the data were processed

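RNA of 2 DDX20 RIP and 2 input libraries was sequenced, and the authors deposited whole-number counts per gene. The submitters' processing notes name cutadapt 4.1, Trimmomatic 0.36, STAR 2.7.2b, SAMtools, featureCounts and the GRCm38 build; the annotation release is not given in the sources used here. Between 65.4% and 67.4% of the counts above 0 were even, so read mates appear to have been counted separately. Halved counts were one alternative.

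GENCODE M21 named 52081 of 55357 identifiers (94.1%), 35 of them with the same version number, so gene lengths and overlaps are approximate. Counts were tested with edgeR 4.0.16 in R 4.3.3 (filterByExpr, TMM scaling, robust quasi-likelihood fit over all 4 libraries, Benjamini-Hochberg adjusted p under 0.05). Fold changes are DDX20 RIP over input, and a standard error is the log2 fold change divided by the root of its F statistic. Alternatives were DESeq2 1.42.0, limma 3.58.1 (voom), other scalings and filters, a 1.5-fold threshold, loess offsets (span 0.3) for coding or exonic length, a replicate block, and each library left out. The procedure was also run on simulated counts whose spread was set to that of these libraries. That run cannot show whether this spread is smaller than that between separate cell preparations. Replicates differed by more than sampling noise, with a median ratio to it of 1.15 in RIP and 1.19 in input, and were kept separate.

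The 40 genes and all lists were chosen with earlier results of these data known. Values per library are given for the 4 highest and the 4 lowest called genes of each group and for genes not called; of each related list, the 2 called genes of highest mean CPM in each direction are named, except 1 gene that is not reported here. Promoters were searched with exact letters. Python packages were pandas 2.3.3, scipy 1.17.1 and matplotlib 3.10.9.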

Additional observations from a re-analysis of the deposited data

How the results depend on the processing

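DESeq2, RLE scaling, limma-voom and the replicate block changed no call among the 40 genes. Same-numbered libraries did not deviate together (correlation of deviations -0.00103). Replicates differed only slightly more than sampling noise, so this cannot tell whether same-numbered libraries came from the same preparation. With the replicate block 32 of the 40 were higher and 2 lower, and 47 and 24 of the related genes. The count of the 40 called lower, 2 with TMM scaling, was 6 with a filter of 1 CPM in all libraries, 1 with the 1.5-fold threshold, 5 with the coding length offset, and 8 both with upper-quartile scaling and with total counts. Their median log2 fold change, 1.22, was 0.997, 0.344, 0.831, 0.871 and 0.878 with the 1 CPM filter, the coding length offset, the exonic length offset, total counts and upper-quartile scaling. Related genes called higher numbered 28 and lower 13 with the 1.5-fold threshold, and lower 15 with the coding length offset. Leaving out 1 library gave medians of 1.19 to 1.31, 32 to 32 higher and 2 to 2 lower among the 40, 45 to 48 higher and 20 to 23 lower among related genes, and a rho with coding length of 0.827 to 0.852.

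Among all pairings of a gene with an alternative, 574 kept direction and call, 13 gained a call, 26 lost one and 27 changed sign, the last in 8 genes. With the coding length offset these were Atrip (-0.466), Nbn (-0.131), Rad51c (0.163), Rad51d (0.317), Wrn (-0.244), Rbbp8 (-0.528) and Fance (-0.136); with the exonic length offset Atrip (-0.361), Rad51d (0.0602), Rbbp8 (-0.629) and Fancc (-0.116). With total counts they were Atrip (-0.271), Rbbp8 (-0.203) and Fance (-0.340), with upper-quartile scaling Atrip (-0.265), Rbbp8 (-0.197) and Fance (-0.333), and with the 1 CPM filter Atrip (-0.145), Rbbp8 (-0.0769) and Fance (-0.213). Rad51d stood at 0.0119 with no filter and ran from -0.114 to 0.0680 with 1 library left out, above 0 without RIP replicate 2 and without input replicate 1 (0.0572). Fance stood at -0.0377 with halved counts, and ran from -0.0725 to 0.152 with 1 library left out, below 0 without RIP replicate 1 (-0.0634) and input replicate 1. Atrip ran from -0.0763, without input replicate 2, to 0.273. The cause was not tested. With 2 libraries a group and counts as low as 68, small changes of the rarest genes were not detectable.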
